A study of Homo sapiens with 6 samples.

Results

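EGF family ligands and ErbB receptors were examined in Huh-7 cells, a line from a human hepatocellular carcinoma, with and without metformin, the biguanide used against type 2 diabetes. The members were chosen by gene symbol and hold the ligands AREG, EREG, HBEGF, BTC, TGFA and NRG1, the receptors EGFR, ERBB2 and ERBB3, and the receptor inhibitor ERRFI1. All 10 were found by Ensembl ID among the 35840 genes of the table. Metformin cells received 20 mM metformin for 48 h (3 libraries, replicates 1 to 3), and control cells received none over the same time (3 libraries, replicates 4 to 6). The dose is that of the methods, and another place in the study's text names a higher dose. The titles of the treated libraries hold the number 20 without a stated unit or drug. Cells of both groups were starved of serum before the treatment, and all are of the same line, with no genetic change named. RNA was sequenced in bulk and given as FPKM, fragments scaled to transcript length and library size, so that levels of different genes can be compared per length.

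EGF family ligands are made as precursors anchored in the cell membrane, and metalloproteases of the ADAM family cut them loose. AREG and TGFA bind EGFR, whereas EREG, HBEGF and BTC bind EGFR and ERBB4, and NRG1 binds ERBB3 and ERBB4. ERBB2 has no known ligand and ERBB3 has a weak kinase, so both work mainly as partners of other ErbB receptors, and EGFR is the ErbB receptor best known for its part in hepatocyte proliferation and liver regeneration.

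AREG, EREG and BTC are neighbours on chromosome 4. In GRCh38 with GENCODE 44, EREG lies at chr4:74365145-74388749 on the plus strand, AREG at chr4:74445136-74455005 on the plus strand and BTC at chr4:74744759-74794523 on the minus strand. The gap between EREG and AREG is 56.4 kb and that between AREG and BTC is 289.8 kb. Transcripts of EREG and AREG rose with metformin and those of BTC did not pass the test, so the 250 bases before each start are given 5' to 3' for a comparison of neighbours. They are RefSeq sequences of GRCh38.p14 (EREG chr4:74364895-74365144, AREG chr4:74444886-74445135, BTC chr4:74794524-74794773, read on the strand of the gene), and capitals mark matches to TGACGTCA (the cAMP response element), TGACG (its shorter form, which TGACGTCA contains) and TATAAA (the TATA box).
EREG: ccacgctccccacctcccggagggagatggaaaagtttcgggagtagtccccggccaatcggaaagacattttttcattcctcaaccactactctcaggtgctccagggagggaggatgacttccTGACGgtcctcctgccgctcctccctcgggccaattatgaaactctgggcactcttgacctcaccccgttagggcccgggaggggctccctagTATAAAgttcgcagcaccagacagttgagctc
AREG: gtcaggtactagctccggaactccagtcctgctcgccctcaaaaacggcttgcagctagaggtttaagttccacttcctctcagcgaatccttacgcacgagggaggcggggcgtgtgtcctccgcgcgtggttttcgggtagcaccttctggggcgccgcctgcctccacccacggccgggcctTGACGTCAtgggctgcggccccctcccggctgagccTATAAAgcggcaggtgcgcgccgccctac
BTC: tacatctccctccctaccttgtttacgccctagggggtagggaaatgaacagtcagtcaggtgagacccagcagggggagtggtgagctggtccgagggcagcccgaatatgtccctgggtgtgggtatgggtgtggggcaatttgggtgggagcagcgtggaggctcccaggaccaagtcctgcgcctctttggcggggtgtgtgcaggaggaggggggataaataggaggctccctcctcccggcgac

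The AREG promoter held TGACGTCA from 65 to 58 bases before the start and TATAAA from 29 to 24 bases before it. In EREG the shorter TGACG stood 125 to 121 bases before the start, and TATAAA 32 to 27 bases before it. Neither strand of the BTC window held any of the 8 motifs searched. Over 35116 RefSeq promoters of the same length, TGACGTCA was found on either strand in 1.65%, TGACG in 21.2% and TATAAA in 10.7%. The other motifs were TGANTCA (AP-1, in 6.57% of all promoters), CCGGAA (ETS, 14.5%), GCGNGGGCG (EGR, 8.41%), TGANNNNGC (the core of the antioxidant response element, 35.2%) and the CArG box (1.16%). Of these, CCGGAA matched in AREG, 236 to 231 bases before the start, and also in TGFA and ERBB2. A promoter was in the RefSeq table for 8 of the 10 members, all but NRG1 and ERBB3. Elsewhere TGANTCA matched in EGFR and ERBB2, TATAAA in EGFR, TGACG in TGFA and TGANNNNGC in ERRFI1, TGFA and EGFR, where TGFA and EGFR have more than 1 window in the table. All 5 EGFR matches fell in the window chr7:55109589-55109838, inside the gene. The EGFR window before the annotated gene start, chr7:55018767-55019016, had 0 matches. HBEGF had no match among the 8 motifs. These matches describe the letters alone and carry no measurement of binding.

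Depth was similar in all libraries, with totals of 17241997 to 18464783 fragments in the metformin libraries and 17192221 to 17835152 in the control libraries. Genes above 0 numbered 22456 to 23237 in the metformin libraries and 24860 to 25163 in the control libraries. Across genes, log2 values correlated at 0.987 to 0.992 within groups and at 0.888 to 0.906 between them, and no library stood apart from its group. Hepatocyte markers were present in every library, and 9 of 10 tested were lower with metformin, where 44.1% of all genes tested were, with summed levels of 1756 to 1912 FPKM in metformin libraries and 3513 to 3623 FPKM in control libraries. ALB was at 664 to 799 FPKM in metformin libraries and 1113 to 1183 FPKM in control libraries. Of the other cell types' defining markers, CD68 of macrophages was at 0 in all libraries, PTPRC of leukocytes (both in the 5 immune markers) reached at most 0.0411 FPKM and DCN of fibroblasts at most 0.0134 FPKM, while the 3 endothelial markers found in the table summed to at most 0.450 FPKM in metformin libraries and 0.490 FPKM in control libraries. CD14 carried most of the immune sum, 5.81 to 10.2 FPKM in metformin libraries and 22.5 to 34.6 FPKM in control libraries, and LUM most of the fibroblast and stellate sum, 34.7 to 47.8 FPKM with metformin and 100.1 to 112 FPKM in control. The part of these lower marker levels in the results that follow was not tested.

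Differences were tested with limma on log2(FPKM + 1) for 13094 genes that averaged 1 FPKM or more in metformin or in control libraries, and p-values were adjusted over all of them after Benjamini and Hochberg. A gene was called at an adjusted p under 0.05 and was a differentially expressed gene (DEG) if its absolute log2 fold change was also above 1. Of the members, 9 of 10 were tested and TGFA stayed below the minimum level. AREG, EREG, HBEGF and NRG1 were called higher with metformin, 4 of 9 tested, where 28.9% of all genes tested were called higher. ERBB3 and ERRFI1 were called lower, 2 of 9, where 44.1% of all genes tested were. BTC, EGFR and ERBB2 did not pass the test. AREG and HBEGF were DEGs, against 4.88% of all genes that were DEGs with higher expression, and 0 of 9 were DEGs with lower expression, against 10.7% of all genes. NRG1 reached the minimum level only in the metformin group, so its mean was bound to be higher there once tested, though a call was not. The counts over tested members describe them without support for a direction. How many of all genes have groups without overlap was not computed, so such separation is not shown to be particular to the members. In bulk RNA, fewer cells that express a gene and less of its RNA per cell cannot be told apart.

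**Figure D1:**
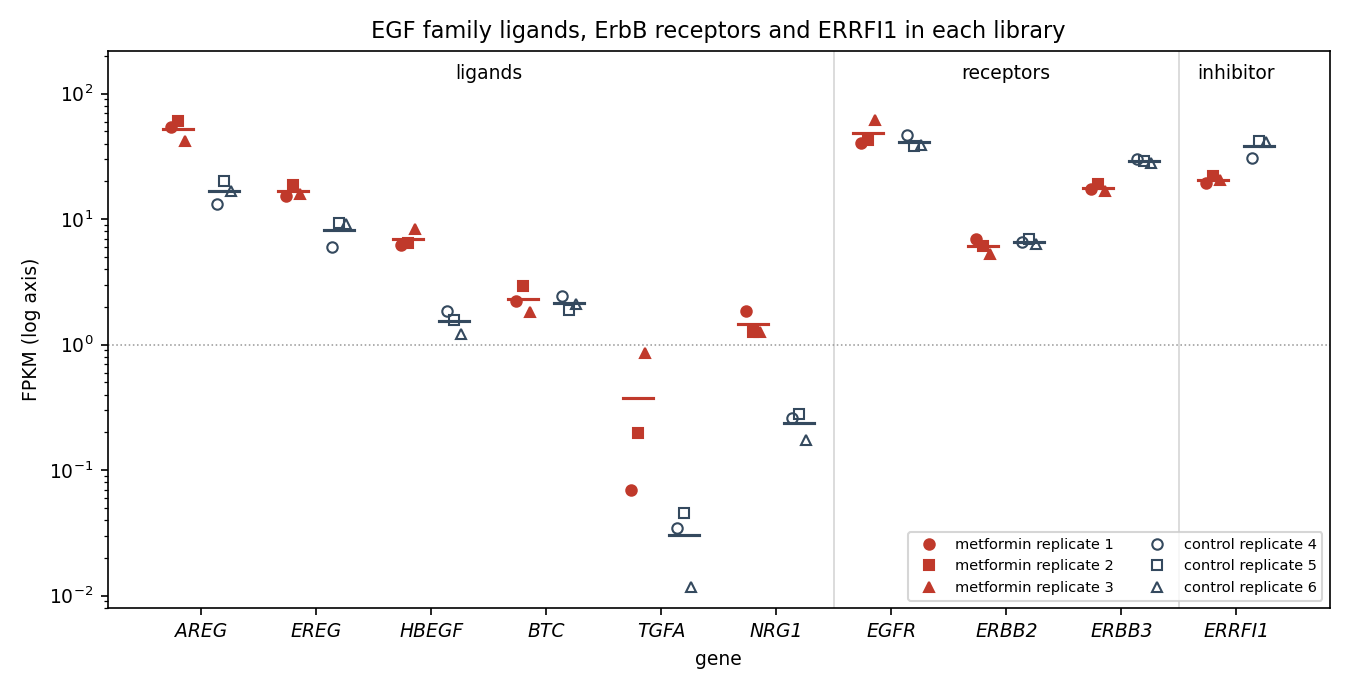
FPKM of each member in each library on a log axis, with metformin libraries in filled red and control libraries in open blue, the group mean as a bar and the minimum level of 1 FPKM as a dotted line. AREG, EREG, HBEGF, TGFA and NRG1 lie higher in all 3 metformin libraries than in the 3 control libraries, ERBB3 and ERRFI1 lie lower, and BTC, EGFR and ERBB2 overlap. The share of all genes that separate in this way was not computed.

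AREG (amphiregulin, a ligand of EGFR) was the most abundant ligand in every library. It stood at 54.3, 60.1 and 41.7 FPKM in the metformin libraries, against 13.1, 20.1 and 16.9 FPKM in the control libraries. The lowest metformin library, replicate 3, was above the highest control library, replicate 5, so the groups did not overlap. AREG averaged 52.0 ± 9.38 FPKM with metformin and 16.7 ± 3.48 FPKM in control (SD, n = 3 each), a 3.12-fold difference of the means. The log2 fold change was 1.59 with a standard error of 0.17, at an adjusted p of 0.000129 by limma.

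EREG (epiregulin, a ligand of EGFR and ERBB4) rose as well and by less. Its levels were 15.4, 18.8 and 15.9 FPKM in the metformin libraries, against 6.03, 9.38 and 9.12 FPKM in the control libraries. All 3 metformin libraries were above all control libraries, and control replicate 4 was the lowest of the 6, as it was for AREG. The means were 16.7 ± 1.81 FPKM with metformin and 8.17 ± 1.86 FPKM in control (SD, n = 3 each), with a log2 fold change of 0.97 (standard error 0.16, adjusted p = 0.000918), just short of the DEG threshold. The ratio of AREG to EREG within a library, which does not change with the scaling of the library, was 3.52, 3.20 and 2.62 in metformin libraries and 2.18, 2.14 and 1.86 in control libraries. This ratio, like the other ratios given here, was chosen after the values were seen, and its groups did not overlap.

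HBEGF (heparin-binding EGF-like growth factor, chr5:140332843-140346603 on the minus strand) was higher with metformin and was a DEG. It was at 6.26, 6.41 and 8.30 FPKM in metformin libraries, against 1.84, 1.56 and 1.21 FPKM in control libraries. The groups were far apart, with metformin replicate 3 highest. Its mean was 6.99 ± 1.14 FPKM with metformin and 1.54 ± 0.315 FPKM in control (SD, n = 3 each), or 4.54-fold higher, with a log2 fold change of 1.65 (standard error 0.13, adjusted p = 2.62e-05). In whole fragments these were 327, 357 and 432 in metformin libraries, against 97, 84 and 63 in control libraries. HBEGF was among the genes that the study named from these libraries, so its direction here is not independent evidence.

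BTC (betacellulin, a ligand of EGFR and ERBB4) did not pass the test. Its levels were 2.22, 2.92 and 1.83 FPKM in metformin libraries, against 2.42, 1.89 and 2.13 FPKM in control libraries, and the groups overlapped. The means were 2.32 ± 0.553 FPKM with metformin and 2.15 ± 0.267 FPKM in control (SD, n = 3 each), and the log2 fold change of 0.07 had a standard error of 0.13 (adjusted p = 0.648). Quantile normalization gave 0.34 at an adjusted p of 0.0378, and without metformin replicate 2 the sign turned to -0.06. The ratio of HBEGF to BTC in a library was 2.83, 2.19 and 4.53 with metformin and 0.761, 0.825 and 0.571 in control, so HBEGF was above BTC in each metformin library and below it in each control library.

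TGFA (transforming growth factor alpha, chr2:70447284-70554193 on the minus strand) was close to the limit of detection and was not tested. It was at 0.0699, 0.196 and 0.853 FPKM in metformin libraries, against 0.0347, 0.0452 and 0.0117 FPKM in control libraries. These values stand for 6, 18 and 73 fragments in metformin libraries and 3, 4 and 1 in control libraries. The groups did not overlap, but metformin replicate 3 held most of the fragments of its group. In sum there were 97 fragments with metformin and 8 in control, a ratio of 12 (95% interval 5.85 to 28.6, for counting error only). With no filter on low values the log2 fold change was 0.37 at an adjusted p of 0.217, on a scale that understates changes of low genes.

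NRG1 (neuregulin 1, the ligand of ERBB3 and ERBB4, chr8:31639222-32855666 on the plus strand) was low in both groups. It stood at 1.85, 1.27 and 1.25 FPKM in metformin libraries, against 0.258, 0.282 and 0.175 FPKM in control libraries. Each metformin library was above each control library, with 363, 265 and 245 fragments with metformin and 51, 57 and 34 in control. The mean was 1.46 ± 0.341 FPKM with metformin and 0.238 ± 0.0565 FPKM in control (SD, n = 3 each), a 6.12-fold difference of the means. The fit gave a log2 fold change of 0.98 (standard error 0.12, adjusted p = 0.000255), and voom on the fragments, which adds far less than 1 FPKM, gave 2.60.

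Summed over the 6 ligands, levels came to 80.2, 89.7 and 69.9 FPKM in metformin libraries, against 23.7, 33.2 and 29.6 FPKM in control libraries, with no overlap. AREG made up 67.8, 67.0 and 59.7% of the sum in metformin libraries and 55.3, 60.4 and 57.2% in control libraries, so its shares overlapped. EREG made up 19.3, 21.0 and 22.8% with metformin and 25.4, 28.2 and 30.9% in control. The BTC share was smaller with metformin, at 2.77, 3.26 and 2.62%, against 10.2, 5.69 and 7.20% in control. The HBEGF share was 7.81, 7.15 and 11.9% with metformin and 7.78, 4.70 and 4.11% in control, with metformin replicate 2 below control replicate 4. These sums and shares are descriptions without a test.

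**Figure D2:**
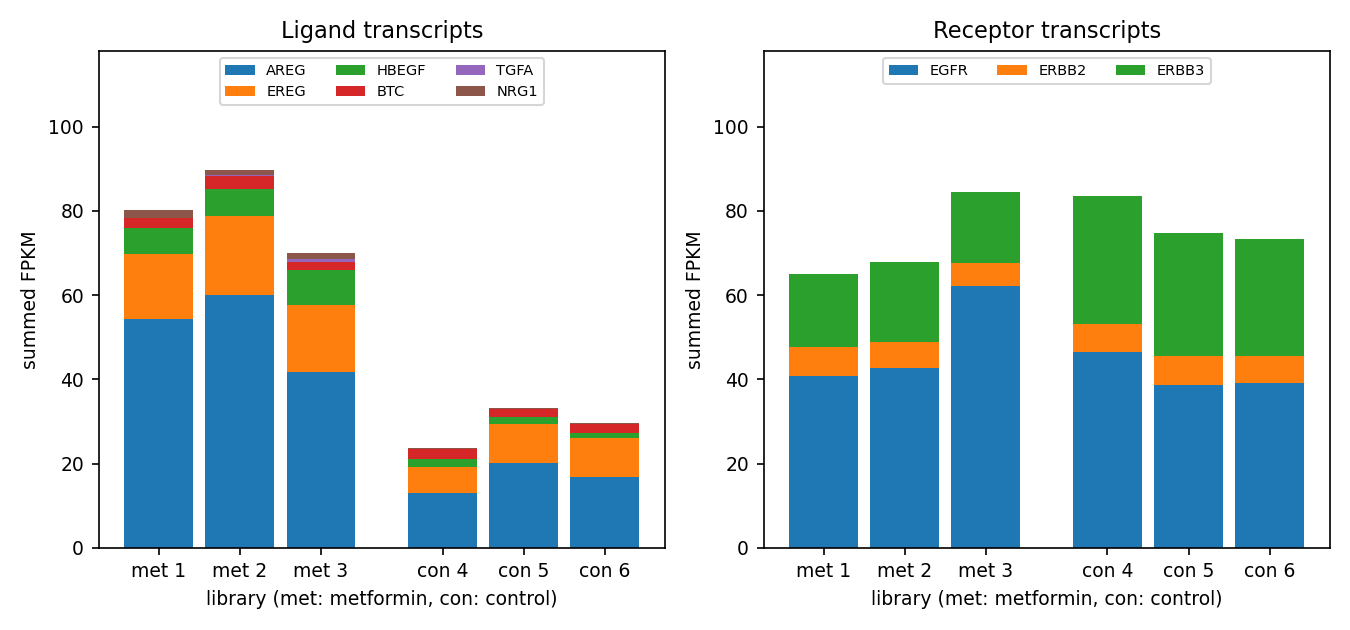
Summed FPKM of the ligand transcripts (left panel) and of the receptor transcripts (right panel) in each library, metformin libraries left of control libraries, with each member as a stacked block. Ligand sums lie between 69.9 and 89.7 FPKM with metformin and between 23.7 and 33.2 FPKM in control, with AREG as the largest block, while receptor sums overlap and the ERBB3 block is smaller with metformin.

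Of the receptors, EGFR (chr7:55019017-55211628 on the plus strand) was the most abundant in every library and did not pass the test. It was at 40.8, 42.8 and 62.3 FPKM in metformin libraries, against 46.6, 38.7 and 39.0 FPKM in control libraries. Metformin replicate 3 was highest and the other metformin libraries lay within the range of the control libraries. The means were 48.6 ± 11.9 FPKM with metformin and 41.4 ± 4.47 FPKM in control (SD, n = 3 each), with a log2 fold change of 0.20 (standard error 0.16, adjusted p = 0.273). Without metformin replicate 3 it was 0.02 at an adjusted p of 0.877. Rescaled by TMM factors it was 0.48 at an adjusted p of 0.0293, and by median-of-ratios factors 0.44 at 0.0397. Over all genes tested, the median of -0.14 as deposited moved by 0.23 and 0.20 under these rescalings, and the calls over all genes were 5596 higher and 4089 lower with TMM, and 3784 higher and 5781 lower as deposited.

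ERBB2 (chr17:39687914-39730426 on the plus strand), the partner receptor without a ligand, was at 6.90, 6.17 and 5.30 FPKM in metformin libraries, against 6.59, 6.95 and 6.38 FPKM in control libraries. The groups overlapped, since metformin replicate 1 was above control replicates 4 and 6. The means were 6.13 ± 0.800 FPKM with metformin and 6.64 ± 0.288 FPKM in control (SD, n = 3 each). The log2 fold change of -0.11 (standard error 0.09, adjusted p = 0.313) turned to 0.14 with TMM factors and to 0.10 with median-of-ratios factors, and neither passed the test.

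ERBB3 (chr12:56076799-56103505 on the plus strand), a neuregulin receptor, fell with metformin. Levels were 17.3, 19.0 and 16.9 FPKM in metformin libraries, against 30.2, 29.1 and 27.9 FPKM in control libraries. The groups did not overlap and the spread within each was small. The mean was 17.7 ± 1.11 FPKM with metformin and 29.1 ± 1.16 FPKM in control (SD, n = 3 each), with a log2 fold change of -0.69 (standard error 0.06, adjusted p = 4.95e-05). The sum of the 3 receptors was 65.0, 67.9 and 84.5 FPKM in metformin libraries and 83.4, 74.8 and 73.4 FPKM in control libraries, which overlap.

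Within that sum the make-up differed between the groups without overlap for EGFR and ERBB3. EGFR took 62.8, 63.0 and 73.7% of receptor transcripts in metformin libraries and 55.9, 51.7 and 53.2% in control libraries. ERBB3 took 26.6 and 27.9% in metformin replicates 1 and 2 and less in replicate 3 and 36.2, 39.0 and 38.1% in control. The ratio of EGFR to ERBB3 was 2.36, 2.26 and 3.69 with metformin and 1.54, 1.33 and 1.40 in control, and the ratio of EGFR to ERBB2, which overlapped, was 5.91, 6.94 and 11.7 with metformin and 7.07, 5.56 and 6.12 in control.

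ERRFI1 (also known as MIG6, chr1:8004404-8026309 on the minus strand) encodes an inhibitor that binds the active EGFR kinase. It was at 19.3, 22.1 and 20.6 FPKM in metformin libraries, against 31.0, 42.2 and 40.9 FPKM in control libraries. All metformin libraries were below all control libraries, and control replicate 4 was the lowest control. The mean was 20.7 ± 1.39 FPKM with metformin and 38.0 ± 6.13 FPKM in control (SD, n = 3 each), with a log2 fold change of -0.84 (standard error 0.12, adjusted p = 0.000464). ERRFI1 per EGFR transcript was 0.473, 0.516 and 0.331 in metformin libraries and 0.665, 1.09 and 1.05 in control libraries, without overlap, while ERRFI1 per ERBB3 transcript was 1.12, 1.16 and 1.22 with metformin and 1.02, 1.45 and 1.46 in control, with overlap.

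**Figure D3:**
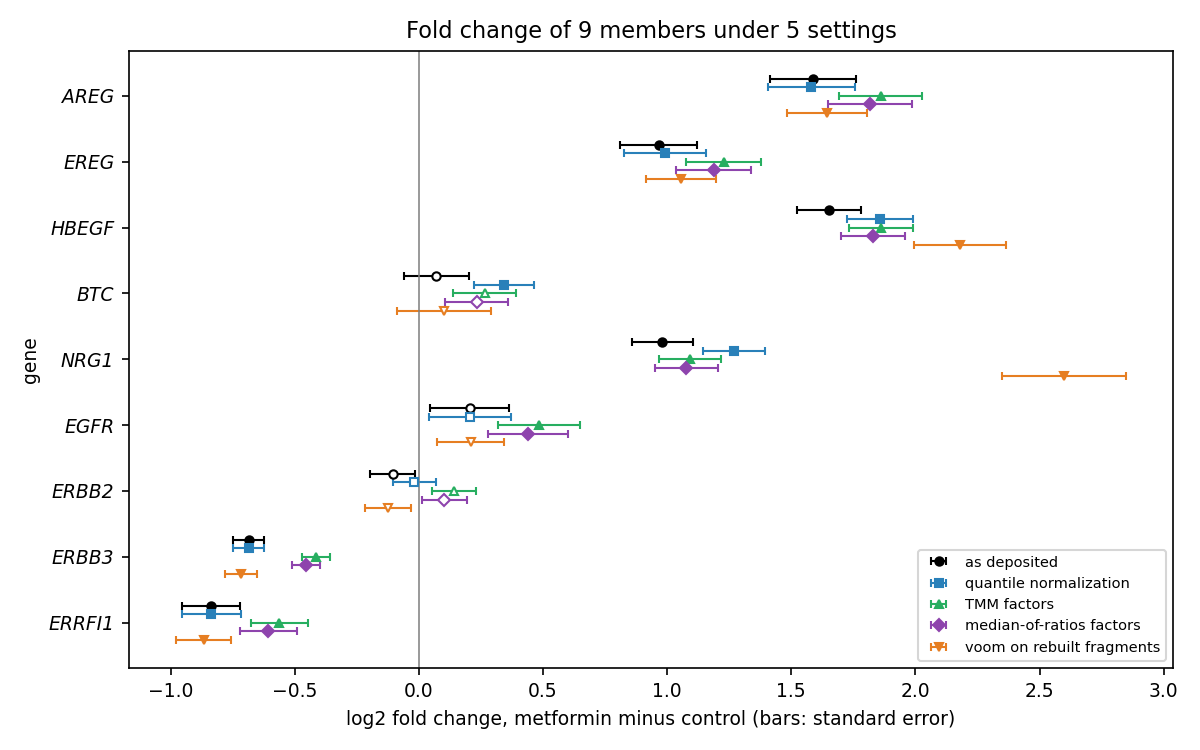
Log2 fold change, metformin minus control, with its standard error for the 9 tested members under 5 settings, filled where the adjusted p was under 0.05. AREG, EREG, HBEGF and NRG1 stay above 0 and ERBB3 and ERRFI1 below 0 under all 5, BTC passes with quantile normalization alone, EGFR passes with TMM and median-of-ratios factors, and ERBB2 changes sign with both of these.

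The order of levels per length differed between the groups. With metformin it ran AREG, EGFR, ERRFI1, ERBB3, EREG, HBEGF, ERBB2, BTC, NRG1 and TGFA, and libraries of neighbours overlapped for AREG and EGFR, ERBB3 and EREG, HBEGF and ERBB2, and BTC and NRG1. In control it ran EGFR, ERRFI1, ERBB3, AREG, EREG, ERBB2, BTC, HBEGF, NRG1 and TGFA, and overlap was seen for EGFR and ERRFI1 and for EREG and ERBB2. AREG thus stood in place 1 with metformin and place 4 in control, and HBEGF in places 6 and 8.

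Several members share exon bases with other genes, and no source used here says whether strand entered the counting. EGFR shares 186 bases with EGFR-AS1 on the opposite strand, which was at 2.09 to 2.18 FPKM in metformin libraries and 1.49 to 1.74 FPKM in control libraries. ERRFI1 shares 155 bases with ENSG00000284747 on the opposite strand, which was at 0.0281 to 0.184 FPKM with metformin and 0.155 to 0.307 FPKM in control. On the same strand, NRG1 shares 189 bases with ENSG00000286131 and ERBB3 shares 31 with ENSG00000257411, and neither of these genes has FPKM here. ERBB2 shares 571 bases with MIEN1 and 144 with PGAP3, both on the opposite strand. MIEN1 was at 4.29, 4.89 and 4.30 FPKM with metformin and 3.96, 3.52 and 3.45 FPKM in control, and PGAP3 at 0.788, 0.753 and 0.775 FPKM with metformin and 2.31, 2.06 and 1.76 FPKM in control. Reads of such pairs cannot be told apart without strand, so the ERBB2 level in particular is uncertain to the extent of these overlaps.

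Genes with the most similar pattern over the 6 libraries were sought by the root-mean-square difference of log2(FPKM + 1) after centring each gene on its mean. For HBEGF they were CLIP2 (0.064), OLFM2 (0.0739) and DEDD2 (0.0862). CLIP2 was at 56.7, 57.2 and 69.4 FPKM in metformin libraries and 22.8, 17.6 and 16.5 FPKM in control libraries, with the same library highest as for HBEGF. For EGFR they were ETF1 (0.0197), ALDH18A1 (0.0520) and WDFY2 (0.0691), and ETF1 stood at 71.3, 74.8 and 112.6 FPKM with metformin and 81.0, 68.6 and 68.7 FPKM in control. For ERRFI1 they were TMEM209 (0.0609), IL13RA2 (0.0715) and CYP2R1 (0.0726). This likeness is a description over 6 libraries that fall into their groups.

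The remaining family members were low. ERBB4, the receptor shared by NRG1, EREG, HBEGF and BTC, was at 1.87, 2.07 and 1.93 FPKM in metformin libraries, against 2.34, 2.50 and 2.33 FPKM in control libraries. Its groups did not overlap, and it was called lower (log2 fold change -0.20, standard error 0.07, adjusted p = 0.0349), but the call was lost under 9 of 13 alternatives, among them leaving out metformin replicate 1 (adjusted p = 0.0927) or 3 (0.0669) and control replicate 4 (0.0652), 5 (0.116) or 6 (0.0617). With quantile normalization its log2 fold change turned to 0.07.

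EGF itself, the founding ligand, gave 24, 34 and 64 fragments in metformin libraries and 14, 8 and 19 in control libraries, a ratio of 2.95 in sum (95% interval 2.05 to 4.30, for counting error only). NRG3 gave 18, 10 and 21 fragments with metformin and 10, 10 and 6 in control (ratio 1.87, interval 1.14 to 3.13). NRG4 went the other way, with 1, 0 and 0 fragments in metformin libraries and 6, 11 and 10 in control libraries (ratio 0.0367, interval 0.000895 to 0.222). EPGN, next to EREG on chromosome 4, gave 0, 2 and 0 fragments with metformin and 2, 4 and 3 in control, and NRG2 gave 1, 0 and 0 with metformin and none in control. None of these 5 ligands reached the minimum level for the test. Under alternatives that include low genes, EGF was called higher with voom (log2 fold change 1.49, adjusted p = 0.0106) but not with no filter (adjusted p = 0.105), and NRG4 was called lower with no filter (-0.13, adjusted p = 0.0114).

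Transcripts of the proteins that handle the ligands moved in both directions. Of 13 genes for ligand sheddases and carriers, 10 were tested, 4 were higher, 4 lower and 2 did not pass, where 28.9% of all genes tested were higher and 44.1% lower. The median log2 fold change of the list was -0.09 beside -0.14 over all genes tested. RHBDF1, an inactive rhomboid that accompanies ADAM17 to the cell surface, was at 12.6 ± 1.19 FPKM with metformin and 4.95 ± 0.697 FPKM in control (log2 fold change 1.20, adjusted p = 3.77e-05). The sheddases, which like other list members outside the naming rule were picked after their values were seen, did not move together. ADAM17 was at 4.61 ± 0.442 FPKM with metformin and 6.02 ± 0.288 FPKM in control (-0.33, adjusted p = 0.00620), a call lost when rescaled by TMM (adjusted p = 0.323) or by median-of-ratios factors (0.157). ADAM10 was at 7.61 ± 0.501 FPKM with metformin and 14.0 ± 0.518 FPKM in control (-0.80). ADAM15 (log2 fold change 0.29, adjusted p = 0.0249) and BACE1 (0.30, adjusted p = 0.00538) were higher, and ADAM9 did not pass (-0.19, adjusted p = 0.132). The ADAM15 call was lost with no filter (adjusted p = 0.0613). It was also lost without metformin replicate 1 (0.0605), control replicate 4 (0.0506) or control replicate 6 (0.081). With either set of factors 5 genes of this list were higher and 1 lower. Of all 13094 genes tested, 5596 were higher and 4089 lower with TMM, and 5291 and 4357 with median-of-ratios factors.

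Among 19 genes of receptor turnover and inhibition, 17 were tested, 9 were higher, 3 lower and 5 did not pass, beside 28.9% higher and 44.1% lower over all genes tested, with a median of 0.31. CBL, a ubiquitin ligase of the active receptors, was at 7.14 ± 0.369 FPKM with metformin and 5.12 ± 0.211 FPKM in control (log2 fold change 0.41). SOCS4, which is known to lower EGFR signalling, fell to 4.41 ± 0.823 FPKM with metformin, against 11.7 ± 1.38 FPKM in control (-1.23, adjusted p = 8.90e-05), whereas the related SOCS5 was at 9.80 ± 1.54 FPKM with metformin and 5.76 ± 0.557 FPKM in control (0.67). PTPN1, a phosphatase that acts on EGFR, was lower, at 8.24 ± 0.537 FPKM with metformin and 12.9 ± 0.222 FPKM in control (-0.59). Genes of this list called higher numbered 13 with TMM or median-of-ratios factors and 11 with quantile normalization. Of all 13094 genes tested, 5596, 5291 and 4607 were higher in that order, and 3784 as deposited.

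The adaptors and the RAS-ERK arm were all tested, and of these 20 genes 8 were higher, 7 lower and 5 did not pass (median 0.02). Over all genes tested 28.9% were higher and 44.1% lower. GAB2, a docking protein, had 12.7 ± 1.25 FPKM with metformin and 4.12 ± 0.120 FPKM in control (log2 fold change 1.42, adjusted p = 6.34e-06). SOS1, the exchange factor that loads RAS with GTP, had 20.9 ± 0.981 FPKM with metformin and 9.74 ± 0.450 FPKM in control (1.03, adjusted p = 7.93e-06). The adaptor SHC1 was lower, with 25.2 ± 2.34 FPKM with metformin and 49.4 ± 1.48 FPKM in control (-0.95). With TMM factors 11 were higher and 4 lower, where 5596 of 13094 genes were higher and 4089 lower.

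Of 17 genes of the PI3K-AKT, PLC and STAT arm, 14 were tested, 5 were higher, 2 lower and 7 did not pass (median 0.14), against 28.9% of all genes tested higher and 44.1% lower. Of the 5, STAT5A reached the minimum level only in the metformin group. PLCG1, the phospholipase C that binds active EGFR, was at 20.1 ± 1.31 FPKM with metformin and 12.7 ± 0.345 FPKM in control (log2 fold change 0.62, adjusted p = 8.16e-05). PIK3R3, a regulatory subunit of PI3-kinase, was at 0.250, 0.409 and 1.39 FPKM in metformin libraries and 2.08, 1.54 and 1.80 FPKM in control libraries. Its groups did not overlap, but the call (-0.79, adjusted p = 0.0173) was lost without metformin replicate 1 (adjusted p = 0.0516) or 2 (0.0617) or control replicate 4 (0.0553), with quantile normalization (0.116) and with no filter (0.0577). PIK3R3 reached the minimum level only in the control group. With TMM or median-of-ratios factors 10 of this list were higher, and with quantile normalization 8. The numbers higher of all 13094 genes tested rose as well, from 3784 as deposited to 5596, 5291 and 4607 in that order.

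Transcripts that are known to follow ERK activity included the largest log2 fold changes of these 5 lists. Of 13 tested, 2 were higher, 6 lower and 5 did not pass, with a median of -0.28. The share lower was near the 44.1% of all genes tested, and 28.9% of all genes were higher. SPRY1, a feedback inhibitor of receptor tyrosine kinases, fell to 1.45 ± 0.242 FPKM with metformin, against 8.10 ± 0.219 FPKM in control (log2 fold change -1.90, adjusted p = 3.30e-06). SPRY4, of the same family, was at 4.10 ± 1.26 FPKM with metformin and 12.3 ± 0.321 FPKM in control (-1.41). Of the ERK phosphatases, DUSP4 did not pass the test (0.01, adjusted p = 0.935). DUSP6 was at 0.424 ± 0.0334 FPKM with metformin and 3.30 ± 0.189 FPKM in control (-1.59) and reached the minimum level only in control, and DUSP5 was at 47.9 ± 3.83 FPKM with metformin and 12.6 ± 0.351 FPKM in control (1.85, adjusted p = 1.86e-06). With TMM or median-of-ratios factors 4 of the list were higher and 4 lower. Of all 13094 genes tested, 5596 and 5291 were higher and 4089 and 4357 lower under these factors.

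**Figure D4:**
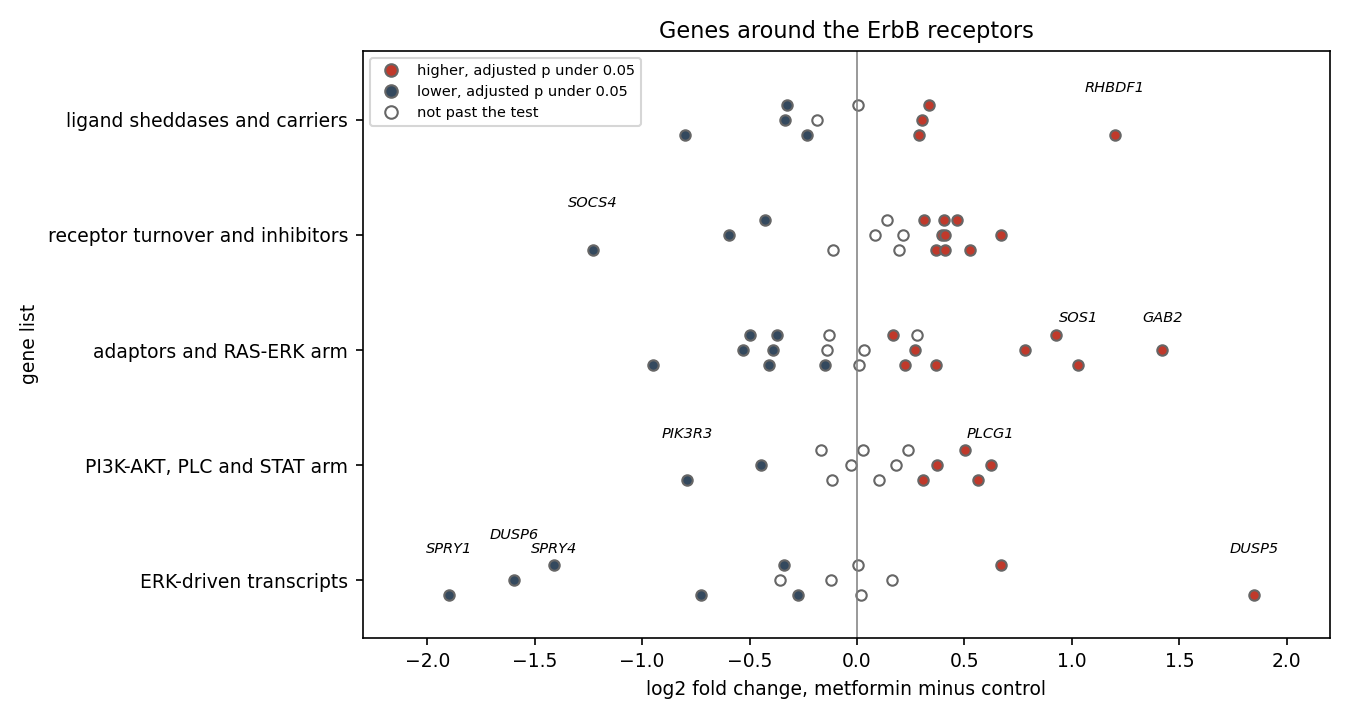
Log2 fold change, metformin minus control, of each tested gene in the 5 lists around the ErbB receptors, as deposited, in red or blue where the adjusted p was under 0.05 and open where it was not, with points spread up and down to keep them apart. Each list holds genes on both sides of 0, and DUSP5 at 1.85 and SPRY1 at -1.90 lie farthest out.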

How the data were processed

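RNA of Huh-7 cells was sequenced in 3 metformin and 3 control libraries, grouped by their titles. The authors deposited FPKM per gene and library for 35840 Ensembl IDs, made with Cufflinks 2.1.1 on GRCh38 with Ensembl 87, as the methods and the submitters' processing notes state. The aligner was not given in the sources used here. The methods speak of independent trials in general and of RNA pooled from cells, without saying how the replicate libraries relate to separate cultures, so p-values measure the spread between these libraries. No deposited column was left out.

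Symbols and coordinates came from GENCODE 44, which holds 35450 of the IDs. Each FPKM is a whole multiple of the value of 1 fragment, 0.0542 to 0.0582 FPKM for a gene of 1 kb, and whole fragments were rebuilt for 31777 of 31777 genes above 0 (tolerance 1e-08). Intervals are exact at 95% and cover counting error only.

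Tests were two-sided with limma 3.58.1 in R 4.3.3, on log2(FPKM + 1) with its mean-variance trend. A pseudocount of 1 was used, which understates the change of low genes. The procedure was tested on simulated data. Their changes were balanced in direction and placed only in genes above the minimum level. That test therefore does not cover low genes or a scaling skewed by changes in 1 direction. Tables and figures used Python 3.11.15, numpy 2.4.6, pandas 2.3.3, scipy 1.17.1 and matplotlib 3.10.9. Alternatives were a pseudocount of 0.1, no filter, quantile normalization, TMM and median-of-ratios factors, voom on fragments (at least 10 in at least 3 libraries), protein-coding genes only, and leaving out each library. The TMM (trimmed mean of M values) factors were unweighted and taken on shares of FPKM, not on fragments. Median-of-ratios factors were taken on FPKM as well.

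The members and lists were chosen with earlier results of these data known. By a rule, the text names all members and other family members, up to 4 genes per list past an absolute log2 fold change of 1 (otherwise the 2 largest past the test), the 3 most alike genes of HBEGF, EGFR and ERRFI1, and genes that overlap a member's exons. ADAM9, ADAM10, ADAM15, ADAM17, BACE1, CBL, SOCS5, PTPN1, SHC1, STAT5A and DUSP4 fall outside this rule and were chosen after their values were seen.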

Additional observations from a re-analysis of the deposited data

How the results depend on the processing

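AREG, EREG, HBEGF, NRG1, ERBB3 and ERRFI1 kept direction and call under all 13 alternatives. Their log2 fold changes ranged over 1.43 to 1.86, 0.79 to 1.23, 1.54 to 2.18, 0.87 to 2.60, -0.73 to -0.41 and -0.97 to -0.56 in that order. Whether EREG and NRG1 were DEGs thus depended on the setting. Both were just below a log2 fold change of 1 as deposited, and with TMM factors they were at 1.23 and 1.09. Members called higher numbered 4 or 5 and those called lower 2 throughout. There were 5 higher with quantile normalization, TMM factors and median-of-ratios factors. Of all 13094 genes tested, these settings gave 4607, 5596 and 5291 higher and 4547, 4089 and 4357 lower. As deposited, 3784 were higher and 5781 lower. Leaving out 1 library at a time gave BTC -0.057 (without metformin replicate 2, adjusted p = 0.664) to 0.18 (without metformin replicate 3). ERBB2 turned to 0.14 (adjusted p = 0.183) with TMM factors and to 0.10 (adjusted p = 0.338) with median-of-ratios factors. These factors shift all genes, and whether FPKM as deposited or rescaled values are nearer to RNA per cell was not tested. TGFA, with 1 to 4 fragments in each control library, is limited by depth. No paired analysis was possible because metformin and control libraries share no replicate number.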
